A study of Mus musculus with 21 samples.

Results

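The genes described here, Msh4, Msh5, Mlh3, Exo1, Mus81, Eme1, Blm and Top3a, act on the joint DNA molecules of recombination and on their resolution into crossovers. They were chosen by name, and each matched 1 row of the RNA-seq table, so that the 8 genes are 8 of 37620. The libraries came from enriched germ cells of male C57BL/6J (B6) mice at 12 dpp (days post-partum), when the oldest germ cells of the testis are in early meiotic prophase. Each library bears 1 of 4 sample numbers (186wt, 343wt, 444wt, 456wt) and a suffix from 1 to 3, and the average of 3 libraries was taken as the value of a sample number. Every library has this strain, age and source, labelled spermatocytes, and the labels name no treatment, no mutant allele and no control group. The question that the libraries can answer is therefore at which level each gene was expressed and how far the 4 samples differed. Whether a sample number is 1 mouse or a pool is not given in the sources used here, and the 3 libraries of a number may share 1 RNA. The p-values below then measure the spread between libraries and compare these 4 samples only.

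In meiotic prophase, programmed double-strand breaks are repaired on the homologous chromosome, and a part of the repair intermediates matures into crossovers, which hold homologs together until they separate. MSH4 and MSH5 form the MutSγ heterodimer, a clamp that stabilizes early joint molecules and marks the sites from which crossovers are drawn. MLH3 is the nuclease-bearing subunit of MutLγ, which resolves most mammalian crossovers together with the exonuclease EXO1. MUS81 with EME1 is a structure-selective endonuclease of a second crossover route, while the helicase BLM and the topoisomerase TOP3A take joint molecules apart without a crossover. MSH4 and MSH5 are known for their meiotic role, and the other genes also serve DNA repair or replication in dividing cells.

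All 8 genes were expressed in every library, at mean levels between 5.57 and 21.1 FPKM (fragments scaled to the transcript's length and to the library's size, so that levels can be set side by side between genes). Top3a was the highest with 21.1 ± 2.05 FPKM (SD, n = 4 sample numbers). It was followed by Mus81 with 13.5 ± 0.946 FPKM, Blm with 12.8 ± 1.77 FPKM, Msh5 with 12.7 ± 4.74 FPKM and Exo1 with 11.6 ± 1.52 FPKM. The lowest levels were those of Eme1 with 8.92 ± 2.10 FPKM, Mlh3 with 6.50 ± 0.763 FPKM and Msh4 with 5.57 ± 1.15 FPKM. Of the 20795 genes that reached a mean of 0.1 FPKM, 51.3% had a lower level than Msh4. Among the protein-coding genes that reached 0.1 FPKM, these shares were 40.7% for Msh4 and 69.3% for Top3a. The levels of the 8 genes spanned 3.79-fold.

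The order of these levels was the same in every sample number for 3 of the 7 neighbouring pairs. Top3a was the highest of the 8 genes in all 4 sample numbers, by 0.64 ± 0.16 (log2 difference of FPKM, SD, n = 4) over Mus81. Exo1 was above Eme1 by 0.40 ± 0.16 and Eme1 above Mlh3 by 0.43 ± 0.21, each in 4 of 4 sample numbers. The other neighbours changed places. Mus81 was above Blm in 3 of 4 sample numbers and Mlh3 above Msh4 in 3 of 4, whereas Blm was above Msh5, and Msh5 above Exo1, in 2 of 4. Msh5 ranked second of the 8 genes in 186wt and 444wt, the fifth in 343wt and the sixth in 456wt. With 4 paired samples the exact two-sided sign-flip permutation test cannot give a p below 0.125, and the adjusted p over the 7 neighbouring pairs was 0.292 for the 3 pairs that kept their order and between 0.438 and 0.75 for the others.

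**Figure D1:**
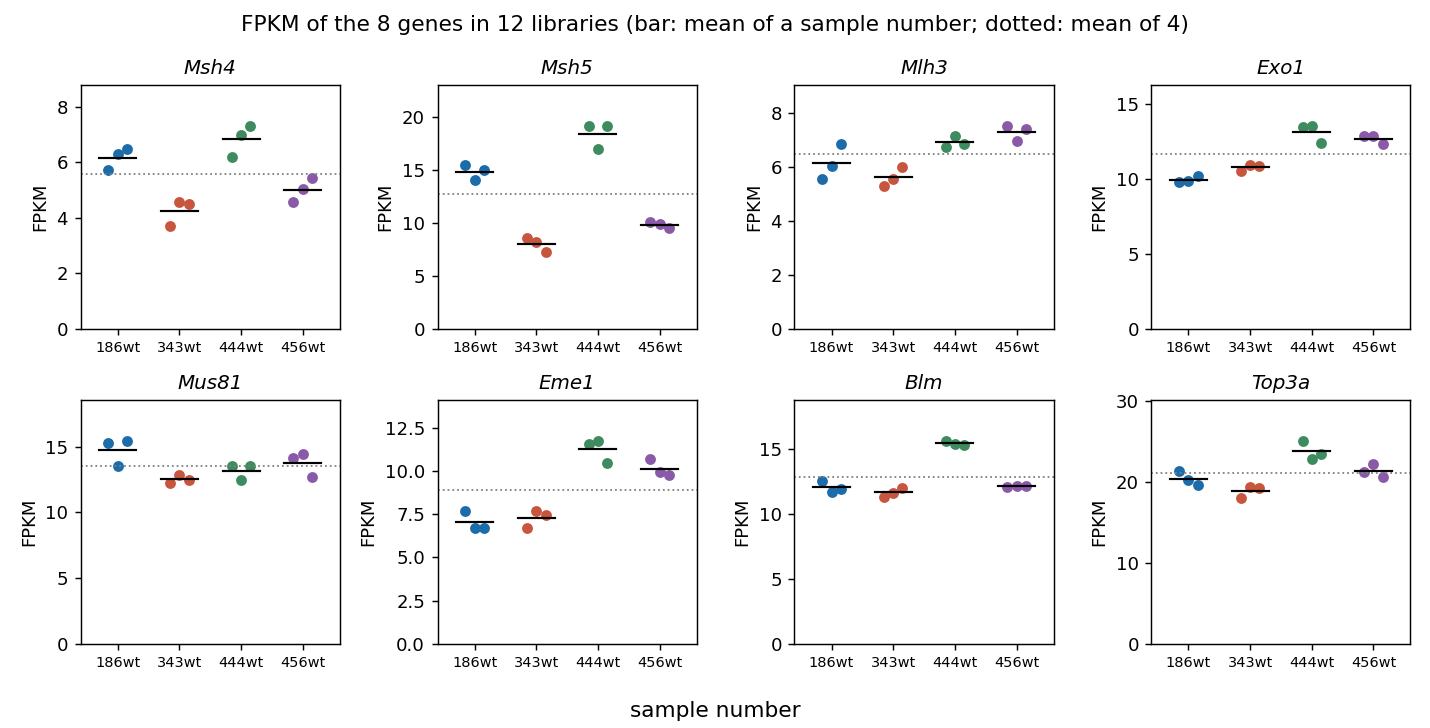
FPKM of each gene (vertical axes, each starting at 0) in the 12 libraries, by sample number (horizontal axis). Points are libraries, black bars the mean of the 3 libraries of a sample number, and dotted lines the mean of the 4 numbers. The bars of Msh5 lie between 7.98 and 18.4 FPKM, those of Mus81 between 12.5 and 14.8 FPKM.

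All 8 genes differed between the sample numbers at an adjusted p-value under 0.05 (limma F-test on log2(FPKM + 0.1), Benjamini-Hochberg adjustment over all 20795 genes). This is also the common outcome in the table, as 58.2% of all genes tested and 75.8% of the 14348 genes that reached a mean of 1 FPKM were called in the same fit. The log2 range, from the lowest to the highest sample number, of log2(FPKM + 0.1) had a median of 0.40 over the 8 genes, compared with 0.55 over all genes tested and 0.42 over the genes with at least 1 FPKM. Msh5 had the largest range of the 8, at 1.19, and only 6.75% of the genes with at least 1 FPKM had a larger one, whereas Mus81 had the smallest, at 0.23, and 79.1% of those genes exceeded it. The median over all genes tested also moved with the sample number. It deviated from the mean of the 4 numbers by 0.06 in 444wt, 0.04 in 456wt, -0.04 in 186wt and -0.07 in 343wt. With upper quartile scaling of the libraries all 8 genes were still called, but each range was lower. It was then 0.28 for Top3a, 0.35 for Blm, 0.32 for Mlh3 and 1.14 for Msh5. As these are bulk values, fewer cells of a type and less RNA per cell cannot be told apart in any of the differences below.

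**Figure D2:**
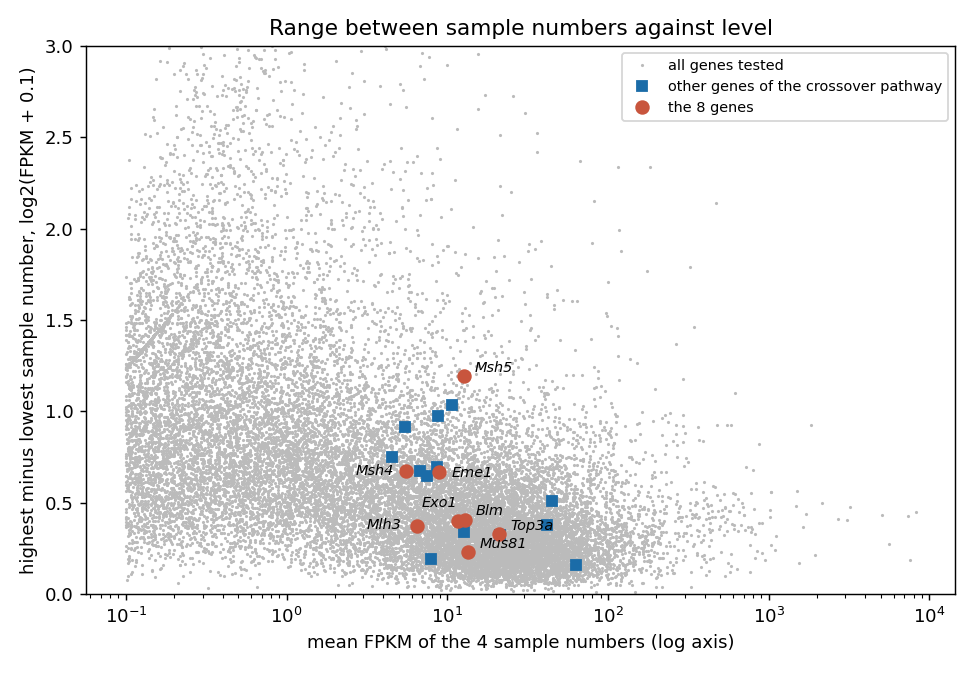
Range from the lowest to the highest sample number (vertical axis, log2(FPKM + 0.1)) against the mean FPKM (horizontal axis, logarithmic) for all 20795 genes tested (grey), the other genes of the crossover pathway (blue squares) and the 8 genes (red circles). Of all genes, 198 lie above the axis limit of 3 and are not drawn. Msh5 at 1.19 is the highest of the red circles and Mus81 at 0.23 the lowest.

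The cell types of the preparation moved with the sample number as well. The 13 genes found of a list of 14 for early meiotic prophase, among them Sycp1 and Sycp3 of the synaptonemal complex and the strand exchange gene Dmc1, were all detected and summed to between 365 (343wt) and 601 FPKM (444wt). The 9 spermatogonial genes summed to between 605 (186wt) and 849.5 FPKM (444wt), and the 7 proliferation genes, among them Mki67 and Top2a, to between 372 (343wt) and 529 FPKM (444wt). The 9 Sertoli cell genes found of 10 summed to between 2377 (444wt) and 4235 FPKM (343wt), so the label spermatocytes does not cover all RNA in the libraries. The sums ranged from 96.4 (343wt) to 157.7 FPKM (456wt) over 7 pachytene genes and from 16.1 (444wt) to 110.5 FPKM (343wt) over 6 Leydig cell genes. They ranged from 253 (343wt) to 1112 FPKM (456wt) over 5 peritubular myoid genes and from 29.2 (186wt) to 56.2 FPKM (456wt) over 5 endothelial genes. Over 5 macrophage genes they ranged from 5.02 (444wt) to 19.99 FPKM (343wt). The 7 round spermatid genes summed to between 3.03 and 5.47 FPKM, with Prm2 at 0 in all libraries. The part of these cell types in the differences of single genes was not tested.

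Msh4 and Msh5, the subunits of MutSγ, were both highest in 444wt, followed by 186wt, 456wt and 343wt. Msh5 (ENSMUSG00000007035) lies on chromosome 17 of NCBI build 37 from 35165550 to 35183690 on the minus strand. Its libraries gave 16.9 to 19.2 FPKM in 444wt, 14.0 to 15.4 FPKM in 186wt, 9.47 to 10.1 in 456wt and 7.27 to 8.52 FPKM in 343wt. The libraries of the 4 sample numbers did not overlap, and the mean of 18.4 FPKM in 444wt was 2.30-fold that of 7.98 FPKM in 343wt (log2 range 1.19, SE of a sample number 0.05, limma adjusted p = 1.54e-07). Msh4 (ENSMUSG00000005493, chromosome 3, 153520111 to 153569102, minus strand) had means of 6.84 FPKM in 444wt, 6.17 FPKM in 186wt, 5.02 FPKM in 456wt and 4.26 FPKM in 343wt. Its difference was smaller, 1.60-fold or 0.67 on the log2 scale (SE 0.07, adjusted p = 0.00055), and fell to 0.44 without 343wt. The libraries of 444wt, at 6.20 to 7.33 FPKM, overlapped those of 186wt, at 5.73 to 6.48 FPKM, and those of 456wt, at 4.57 to 5.45 FPKM, touched those of 343wt, at 3.70 to 4.57 FPKM.

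Msh4 and Msh5 were the only members of the 8 in which every library of 186wt and 444wt was above every library of 343wt and 456wt. This arrangement was found in 2.29% of all genes tested and was picked after the values were seen. The share was not computed for genes with at least 1 FPKM. Neither were the shares below for other arrangements and for genes highest in 444wt. Of the 13 early meiotic genes, 7 had the arrangement of Msh4 and Msh5, namely Sycp1, Sycp2, Sycp3, Dmc1, Spo11, Hormad2 and Smc1b. The early meiotic list had a median deviation from the mean of the 4 numbers of 0.39 in 444wt, -0.02 in 186wt, -0.11 in 456wt and -0.36 in 343wt (log2 scale). The deviations of Msh5 were 0.60, 0.29, -0.30 and -0.59 in the same order, and those of Msh4 were 0.31, 0.17, -0.12 and -0.36. Both genes were thus relatively higher in 186wt than the median of that list.

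The sequences before the starts of these genes are shown because their RNA levels moved in the same order in the 4 samples. RefSeq holds an entry for 6 of the 8 genes in its promoter table of GRCm38.p6, a later build than that of the RNA-seq table, and the 250 bases before the start are given 5′ to 3′ on the strand of the gene. Capitals mark matches on either strand to GGCGGGAA (the core of E2F sites), CNCCTCAG (the motif of the meiotic regulator STRA8), TGACGTCA (the cAMP response element), CCAAT (the binding letters of NF-Y), GGGCGG (the GC box) and the NRF1 motif. The GC box and the E2F core can share letters, and at the left end of the Msh5 window a GC box and a CCAAT adjoin.
Msh5, chr17:35046623-35046872, minus strand: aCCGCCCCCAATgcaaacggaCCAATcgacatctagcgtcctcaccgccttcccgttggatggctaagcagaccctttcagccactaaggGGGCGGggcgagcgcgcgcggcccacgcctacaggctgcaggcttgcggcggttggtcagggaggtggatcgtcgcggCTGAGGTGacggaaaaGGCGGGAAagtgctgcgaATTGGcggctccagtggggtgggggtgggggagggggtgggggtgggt
Msh4, chr3:153904892-153905141, minus strand: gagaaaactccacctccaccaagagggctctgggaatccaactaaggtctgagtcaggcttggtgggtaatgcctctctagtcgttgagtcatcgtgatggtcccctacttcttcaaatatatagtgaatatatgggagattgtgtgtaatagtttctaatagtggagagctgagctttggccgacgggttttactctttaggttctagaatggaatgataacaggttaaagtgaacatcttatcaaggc

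The windows of both subunits differed in their letters. That of Msh5 had 67.2% G and C and 22 CpG, more CpG than 85.2% of the 32851 promoter windows in the table. It held the E2F core 66 bases and the STRA8 motif 82 bases before the start, as well as 3 CCAAT and 2 GC box matches. The E2F core is in 1.86% of all windows, the STRA8 motif in 6.42%, CCAAT in 33.8% and the GC box in 32.7%. That of Msh4 had 43.6% G and C and 4 CpG, and none of these letters was in it. A match is a description of the letters and not of a bound site, and the RNA-seq values do not bear on any factor.

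Mlh3 and Exo1 act at the resolution of MutSγ-marked intermediates, but neither followed the order of samples of Msh4 and Msh5. Their own orders also differed from each other. Mlh3 (ENSMUSG00000021245, chromosome 12, 86575479 to 86611541, minus strand) had means of 7.31 FPKM in 456wt, 6.92 FPKM in 444wt, 6.14 FPKM in 186wt and 5.62 FPKM in 343wt. Those of 186wt spread by library from 5.55 to 6.84 FPKM and overlapped those of 444wt and 343wt. The highest sample number was 1.30-fold above the lowest (log2 range 0.38, SE 0.06, adjusted p = 0.00554). The call was lost without 343wt, where the range was 0.25 in place of 0.38 (limma adjusted p = 0.0578). It was also lost without the libraries of suffix 1 (range 0.31, limma adjusted p = 0.0785) or suffix 2 (range 0.40, limma adjusted p = 0.0823). By summed FPKM the pachytene, peritubular myoid and endothelial lists were highest in 456wt, as Mlh3 was. The pachytene list had a median deviation of 0.58 in 456wt but of -0.48 in 444wt, where Mlh3 deviated by 0.10.

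Exo1 (ENSMUSG00000039748, chromosome 1, 177810909 to 177841527, plus strand) had means of 13.1 FPKM in 444wt, 12.6 FPKM in 456wt, 10.8 FPKM in 343wt and, as the lowest, 9.91 FPKM in 186wt. The libraries of 444wt, at 12.4 to 13.5 FPKM, overlapped those of 456wt, at 12.3 to 12.8 FPKM, and both were above all of 343wt, at 10.5 to 10.9 FPKM, and of 186wt, at 9.75 to 10.2 FPKM. The highest sample number was 1.32-fold above the lowest (log2 range 0.40, SE 0.03, adjusted p = 2.97e-05).

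Mus81 and Eme1 encode the subunits of 1 nuclease, and of the 4 functional pairs compared below theirs had the ratio with the largest range. Eme1 (ENSMUSG00000039055, chromosome 11, 94506310 to 94515278, minus strand) had 10.5 to 11.8 FPKM in the libraries of 444wt and 9.75 to 10.7 FPKM in those of 456wt, against 6.71 to 7.69 in 186wt and 6.68 to 7.66 FPKM in 343wt. The mean was 1.60-fold higher in 444wt, at 11.3 FPKM, than in 186wt, at 7.04 FPKM (log2 range 0.67, SE 0.05, adjusted p = 1.89e-05). Eme1 overlaps Lrrc59 by 221 bp and Mrpl27 by 198 bp on the opposite strand, genes with 48.6 and 24.8 FPKM, and since a strand setting is not stated their reads may enter its value. Mus81 (ENSMUSG00000024906, chromosome 19, 5482345 to 5488402, minus strand), the catalytic subunit, had 14.8 FPKM in 186wt, 13.7 FPKM in 456wt, 13.2 FPKM in 444wt and 12.5 FPKM in 343wt. Libraries of neighbouring numbers overlapped throughout, and the difference of 1.18-fold (log2 range 0.23, SE 0.05, adjusted p = 0.0426) was close to the threshold. The call was lost without 186wt (range 0.13, adjusted p = 0.191), without 343wt (0.16, adjusted p = 0.183) and without the libraries of suffix 1 (0.19, adjusted p = 0.352) or suffix 3 (0.20, adjusted p = 0.140). With the range still at 0.23, it was also lost with no filter on low genes (adjusted p = 0.106), without the trend in limma (0.0659) and with the suffix as a replicate block (0.0721).

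Exo1 and Eme1 were the only 2 of the 8 genes in which every library of 444wt and 456wt was above every library of 186wt and 343wt. This arrangement, also picked after the values were seen, was found in 15.1% of all genes tested. It was also found in 7 of the 9 spermatogonial genes, among them Uchl1 and Sall4, in 6 of the 7 proliferation genes and in 4 of the 5 peritubular myoid genes (Acta2, Myh11, Cnn1 and Tagln). The spermatogonial list had median deviations of 0.25 in 444wt and 0.14 in 456wt and of -0.15 in 343wt and -0.28 in 186wt, and the proliferation list of 0.27, 0.15, -0.23 and -0.21. Eme1 deviated by 0.36, 0.21, -0.26 and -0.31 in the same order of samples, and Exo1 by 0.18, 0.13, -0.10 and -0.22. The Sertoli cell list was low where these genes were high, with -0.28 in 444wt, -0.32 in 456wt, 0.36 in 343wt and 0.29 in 186wt.

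**Figure D3:**
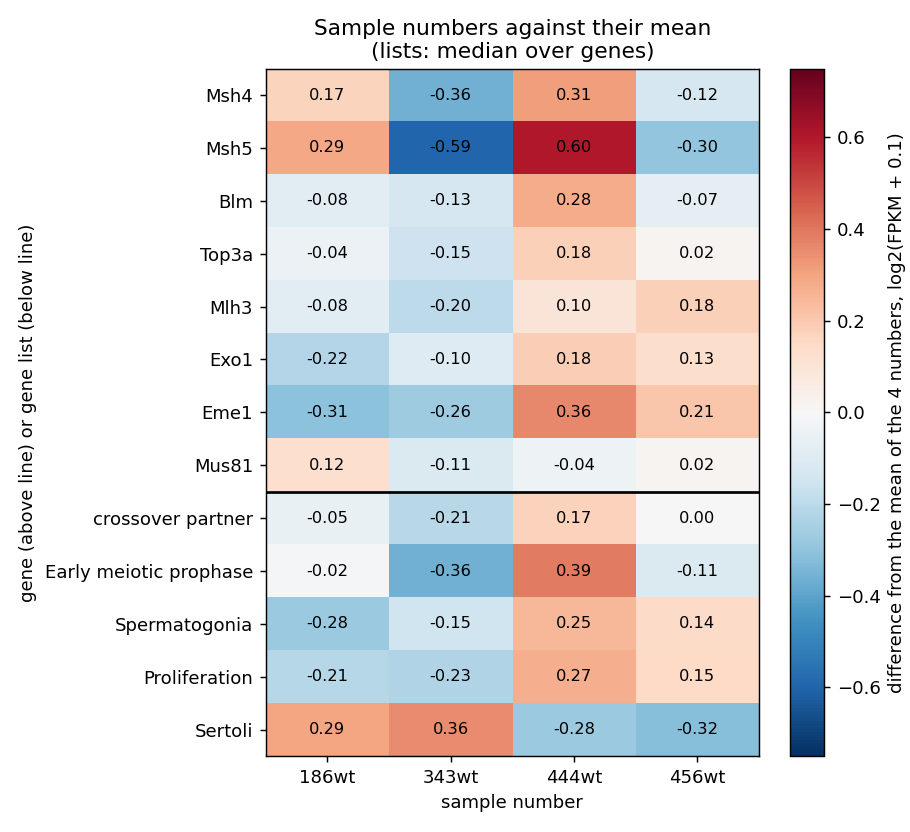
Deviation of each sample number (horizontal axis) from the mean of the 4 numbers on the log2(FPKM + 0.1) scale, for the 8 genes above the black line and, below it, the median over the genes of 5 lists. Red is above and blue below the mean. Msh5 runs from -0.59 in 343wt to 0.60 in 444wt, and Eme1 from -0.31 in 186wt to 0.36 in 444wt.

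Blm and Top3a, the helicase and the topoisomerase that take joint molecules apart, were both highest in 444wt. Blm (ENSMUSG00000030528, chromosome 7, 87599879 to 87680005, minus strand) had 15.3 to 15.6 FPKM in the libraries of 444wt. It had 11.7 to 12.5 FPKM in 186wt, 12.04 to 12.16 in 456wt and 11.32 to 11.99 FPKM in 343wt, so that the libraries of 186wt overlapped those of both others. The difference of 1.33-fold between 444wt and 343wt (log2 range 0.40, SE 0.03, adjusted p = 9.07e-06) rested on 444wt, without which the range was 0.06 and the adjusted p 0.494. Top3a (ENSMUSG00000002814, chromosome 11, 60553560 to 60590867, minus strand) had 22.8 to 25.1 FPKM in 444wt, 20.6 to 22.2 FPKM in 456wt, 19.7 to 21.3 in 186wt and 17.98 to 19.39 FPKM in 343wt. Its range of 0.33 (SE 0.03, adjusted p = 0.000805) was 0.18 without 444wt, with an adjusted p of 0.0314, and 0.22 without 343wt.

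Msh5, Blm and Top3a were the 3 of the 8 genes with every library of 444wt above all others, an arrangement of 11.5% of all genes tested. Msh5 and Top3a had every library of 343wt below all others, as had 8.28% of all genes tested. Both arrangements were picked after the values were seen. The arrangement with 444wt above was also found in 9 of the 13 early meiotic genes and 7 of the 9 spermatogonial genes. It was found in 3 of the 7 proliferation genes and in 0 of the 9 Sertoli cell genes. That with 343wt below was found in 9 of the 13 early meiotic genes and 4 of the 5 peritubular myoid genes. It was found in 1 of the 9 spermatogonial genes and 1 of the 7 proliferation genes. By summed FPKM the early meiotic, spermatogonial, round spermatid and proliferation lists were highest in 444wt. The Sertoli cell, Leydig cell and macrophage lists were lowest there, with 16.1 FPKM against 56.5 to 110.5 FPKM for the Leydig cell genes and 5.02 FPKM against 9.18 to 19.99 FPKM for the macrophage genes. The window before the start of Blm is given as a contrast to those of MutSγ, since Blm varied little outside 444wt.
Blm, chr7:80534999-80535248, minus strand: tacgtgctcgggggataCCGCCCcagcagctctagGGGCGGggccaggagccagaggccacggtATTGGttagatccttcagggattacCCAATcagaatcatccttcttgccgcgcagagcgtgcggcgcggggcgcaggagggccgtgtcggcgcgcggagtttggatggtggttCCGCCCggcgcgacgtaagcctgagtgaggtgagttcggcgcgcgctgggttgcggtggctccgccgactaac
It had 66.8% G and C and 29 CpG, more CpG than 93.2% of all windows, with 2 CCAAT and 3 GC box matches and without the E2F core and the STRA8 motif. Of the 6 windows, CCAAT was in those of Blm, Mlh3 and Msh5 and the GC box in those of Blm and Msh5. RefSeq has 2 promoter entries for Mlh3, of which only the first was used, whereas the shares of all windows count every entry. The cAMP response element, found in 1.55% of all windows, and the NRF1 motif, found in 0.782%, were in none of the 6.

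Since scaling of a library cancels in the ratio of 2 genes, the ratio within a pair shows whether both varied alike. The log2 ratio of Eme1 to Mus81 was -1.06 in 186wt, -0.78 in 343wt, -0.44 in 456wt and -0.22 in 444wt, a range of 0.83 (exact permutation test of 12 libraries over the 4 numbers, adjusted p = 0.00026 over 4 pairs). Eme1 thus had close to the level of Mus81 in 444wt and less than that in 186wt. Msh4 was below Msh5 in every library, with log2 ratios of -1.41 in 444wt, -1.25 in 186wt, -0.95 in 456wt and -0.89 in 343wt (exact permutation test, adjusted p = 0.0381). Both subunits therefore followed the same order of samples with a smaller change in Msh4. The ratio of Blm to Top3a varied least, from -0.81 in 456wt to -0.62 in 444wt (exact permutation test, adjusted p = 0.00571). The ratio of Mlh3 to Exo1 ran from -0.93 in 343wt to -0.69 in 186wt (exact permutation test, adjusted p = 0.0381).

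The call for Eme1 to Mus81 was kept whichever sample number or library suffix was left out. The other 3 were lost in several of these fits. The ratio of Msh4 to Msh5 lost its call without 186wt (exact permutation test, adjusted p = 0.0762) and without 444wt (0.157), and that of Blm to Top3a without 444wt (0.0643), where its range was 0.12 in place of 0.19. Without the libraries of 1 suffix only 105 arrangements remain and p cannot go below 0.00952. A call was still possible, as Eme1 to Mus81 kept its call in each of these fits (exact permutation test, adjusted p = 0.0381). Msh4 to Msh5 kept its call only without suffix 1, Blm to Top3a only without suffix 3 and Mlh3 to Exo1 in none. The adjusted p rose to 0.314 for Msh4 to Msh5, 0.0952 for Blm to Top3a and 0.238 for Mlh3 to Exo1 (exact permutation test). The ranges were then 0.44 to 0.57, 0.14 to 0.23 and 0.22 to 0.28, against 0.52, 0.19 and 0.24 with all libraries. Without 1 sample number 280 arrangements remain, with a smallest p of 0.00357. The ratio of Mlh3 to Exo1 lost it without 186wt (exact permutation test, adjusted p = 0.132, range 0.15 in place of 0.24), without 343wt (0.0714) and without 444wt (0.0857). Over all 28 pairs of the 8 genes, a comparison added after the values were seen, 27 ratios differed between sample numbers at an adjusted p under 0.05, and Mlh3 to Top3a was the exception (exact permutation test, adjusted p = 0.228, range 0.23). The share of ratios called among pairs of other genes was not computed, and 75.8% of the genes with at least 1 FPKM differed between sample numbers. Whether the counts of ratios called are particular to these 8 genes was therefore not tested. The largest ranges were those of Msh5 to Mus81, at 1.12, and of Msh5 to Eme1, at 1.11. The log2 ratio of Msh5 to Eme1 was 1.06 in 186wt, 0.70 in 444wt, 0.13 in 343wt and -0.05 in 456wt.

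**Figure D4:**
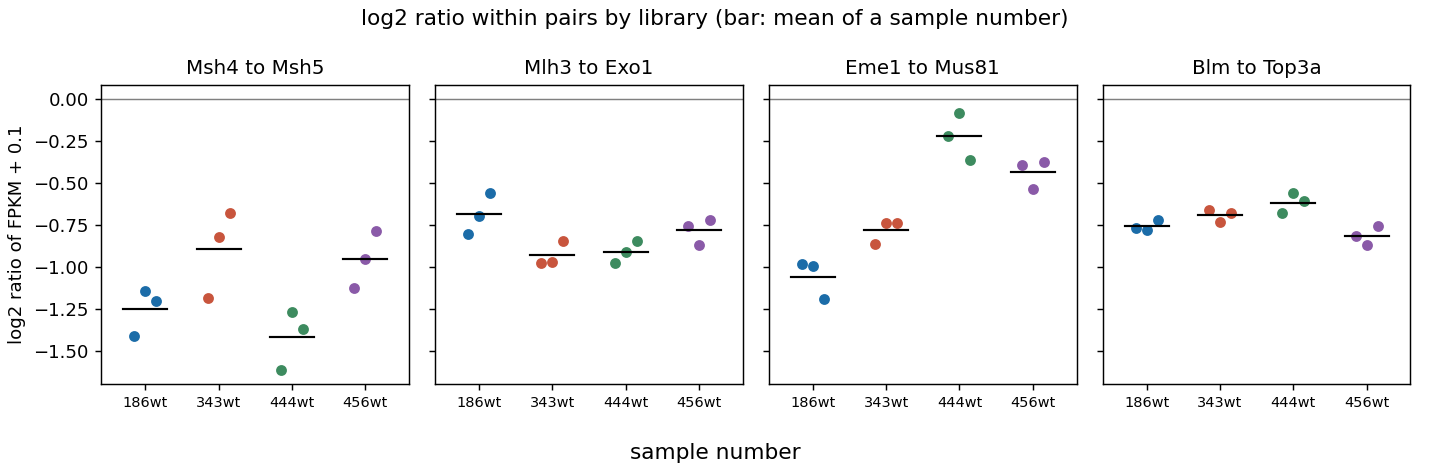
log2 ratio of FPKM + 0.1 (vertical axis) within 4 pairs of genes in the 12 libraries, by sample number (horizontal axis). Points are libraries and bars the mean of a sample number, and the grey line at 0 marks equal levels. Eme1 to Mus81 runs from -1.06 in 186wt to -0.22 in 444wt, while Blm to Top3a stays between -0.81 and -0.62.

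A list of 15 other genes of the pathway was set beside the 8, of which 13 were found in the table. Of these, 12 differed between sample numbers (limma, adjusted p under 0.05), beside the 58.2% of all genes tested and 75.8% of those that reached 1 FPKM. The median range of the 13 was 0.65 on the log2(FPKM + 0.1) scale, compared with 0.55 and 0.42 for these sets of genes. Slx1b, a nuclease subunit, did not pass, with 7.42 to 8.49 FPKM (adjusted p = 0.115). All 13 had a mean between 4.55 and 63.2 FPKM, and 9 of them were highest in 444wt, as were 36.3% of all genes tested.

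The factors that designate crossover sites with MutSγ include Hfm1, a helicase, AI481877 (Shoc1), an XPF-like protein, and the RING-finger proteins Rnf212 and Ccnb1ip1. Hfm1 had 15.89 FPKM in 444wt, 10.95 FPKM in 186wt, 8.05 FPKM in 456wt and 7.69 FPKM in 343wt (range 1.04, limma adjusted p = 9.91e-06), and was the only 1 of the 13 with all libraries of 186wt and 444wt above the rest, as Msh4 and Msh5 were. AI481877 had 12.8 FPKM in 444wt and 6.43 to 8.06 FPKM elsewhere (range 0.98). Rnf212 had 8.35 FPKM in 444wt against 4.37 to 4.69 FPKM, and Ccnb1ip1 had 9.08 FPKM against 5.67 to 6.15 FPKM. Tex11, an X-linked meiotic gene, had 52.3 and 51.2 FPKM in 444wt and 456wt, against 38.1 and 36.8 FPKM in 343wt and 186wt, the order of samples seen for Eme1. Cntd1, a cyclin-like crossover factor, was highest in 186wt with 9.16 FPKM and lowest in 343wt with 5.80 FPKM. Cdk2, a cell cycle kinase that also sits at crossover sites, was the highest of the 13 with 63.2 ± 2.99 FPKM (SD, n = 4) and had the smallest range, at 0.16 (adjusted p = 0.000462).

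Among nucleases and their scaffold, Gen1, a resolvase, had the lowest mean of the 13 genes, 4.55 ± 1.02 FPKM (SD, n = 4), and ranged from 3.49 (343wt) to 5.95 FPKM (444wt). Slx4, the scaffold that binds MUS81, had 24.04 and 21.99 FPKM in 456wt and 444wt, and 19.7 and 19.1 FPKM in 186wt and 343wt. Eme2, the paralog of Eme1 and alternative partner of MUS81, took the reverse order, with 10.2 FPKM in 186wt, 9.86 FPKM in 343wt, 8.10 FPKM in 456wt and 6.26 FPKM in 444wt (range 0.69, limma adjusted p = 5.15e-05). In 444wt Eme1 at 11.3 FPKM was above Eme2, and in 186wt Eme1 at 7.04 FPKM was below it. Rmi1, the partner of BLM and TOP3A, ranged from 11.1 (343wt) to 14.1 FPKM (444wt) (range 0.34), close to Top3a at 0.33. Top3b, the paralog of Top3a, had 41.5 ± 4.40 FPKM (SD, n = 4), a higher level than any of the 8 genes.

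The genes whose levels over the 4 samples were most like those of each member were found among 13094 other protein-coding genes that reached a mean of 1 FPKM, by the root-mean-square distance of log2 values centred on their own mean. For Msh4 they were Hormad2 (distance 0.022) and Gm10644 (0.029), and for Msh5 they were Spdya (0.057) and Gm4969 (0.065). Few genes came near these 2, as 0.962% of the genes lay within 0.1 of Msh4 and 0.0611% within 0.1 of Msh5. The distance is not scaled by the log2 range, which was 0.67 for Msh4 and 1.19 for Msh5. Such shares therefore also depend on the size of the change. The nearest to Mlh3 were Gps2 (0.0045) and Rrbp1 (0.0067), to Exo1 they were Emg1 (0.0041) and Phlpp2 (0.0068), and to Eme1 they were Rims1 (0.0084) and Dnd1 (0.011). Mus81 was near to Isyna1 (0.0074), Blm to Gm166 (0.0024) and Hemk1 (0.0095), and Top3a to Lrrcc1 (0.0056) and Smc4 (0.0076). Between 4.83% of the genes, for Eme1, and 22.5%, for Top3a, lay within 0.1 of these 6 members. The member nearest to Msh5 was Msh4 (0.214), and 0.718% of the other genes were nearer to Msh5. The reverse did not hold, as the member nearest to Msh4 was Blm (0.173), with 7.13% of the other genes nearer to Msh4.

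The 3 libraries of a sample number differed little in these genes. With the depth estimated from the smallest steps of low values, at 13.1 to 18.4 M (mega) fragments per library, the 8 genes had between 206 fragments, for Msh4, and 1463 fragments, for Top3a, in a library on their longest coding transcript. Counting alone then gives a coefficient of variation from 2.89% for Top3a to 6.03% for Msh4. The observed variation within a sample number was between 2.32% for Blm and 8.92% for Msh4, compared with a variation between sample numbers of 37.2% for Msh5, 23.5% for Eme1, 20.7% for Msh4 and 6.98% for Mus81. For Mus81 the within-number variation was 5.63%. The variation within a number is that of single libraries, whereas that between numbers is of means of 3 libraries, so they are not on the same scale. The estimates from the fragments cover counting error only.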

How the data were processed

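RNA-seq was analysed in 12 libraries of B6 germ cells at 12 dpp. Per the labels and the methods, the authors used Bowtie 0.12.9 to place paired reads of 100 bp on the transcripts of NCBI build 37 and RSEM 1.2.8 to compute FPKM, which divides reads among transcripts they match equally well. The deposited FPKM are rounded to 2 decimals and come without counts. Sums ranged from 477629 to 485096 FPKM between libraries. Columns were matched to samples by name, and 3 libraries were averaged per sample number. The other assays of the study were not analysed here.

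Differences between the 4 sample numbers were tested on log2(FPKM + 0.1) over all genes that reached a mean of 0.1 FPKM, by the moderated F-test of limma 3.58.1 with a mean-variance trend (R 4.3.3). Ratios were tested by exact permutation of the 12 libraries, with 15400 distinct arrangements and a smallest p of 6.49e-05. Depth was estimated from the step that 1 fragment makes in 329 genes whose only transcript is 300 to 500 bp long. Scripts were tested on simulated data. Positions are from GENCODE M1 on NCBI build 37. Python 3.11.15 (numpy 2.4.6, pandas 2.3.3, scipy 1.17.1, matplotlib 3.10.9) served for the remaining values and for the plots. The members and lists were chosen with earlier results of these data known. The genes named are the members, the pathway list, and the 2 genes most like each member, 1 of which is not reported here. Rnf212b and Rmi2 of the pathway list had no row under these symbols. The library suffixes 1 to 3 were checked as pairs across sample numbers. Deviations of libraries with the same suffix correlated between -0.06 and 0.13 across genes, so the suffixes were not taken to pair samples.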

Additional observations from a re-analysis of the deposited data

Results flagged for a closer look

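The levels of the 8 genes, the 4 ratios, the 13 other pathway genes and the sums of the cell type lists were compared between the 4 sample numbers by Dixon's test, in which the gap from an extreme sample to its neighbour is set against the full spread. A sample number passed the critical value in 3 of 35 values, where chance gives about 1.75. Each of the 3 was high in 444wt. Blm had 15.4 FPKM in 444wt against 11.6 to 12.1 FPKM in the others, and its mean was 11.9 FPKM without 444wt in place of 12.8 FPKM. Rnf212 had 8.35 FPKM against 4.37 to 4.69 FPKM, with a mean of 4.52 FPKM without 444wt in place of 5.48 FPKM. Ccnb1ip1 had 9.08 FPKM against 5.67 to 6.15 FPKM, with a mean of 5.94 FPKM without 444wt in place of 6.73 FPKM. The early meiotic list was also highest in 444wt, at 601 FPKM against 365 to 469 FPKM, and its part in these values was not tested.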

How the results depend on the processing

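The 262 recomputed values are counts, levels and ranges, which have no sign, so a reversal of direction could not show in them. A call was lost in 24 of them. TPM scales every library to the same, larger sum, so the 8 levels rescaled to TPM are in another unit and cannot be set against the spread between samples. The count of genes differing between sample numbers was between 10775 and 12146 under other pseudocounts, filters, scalings and without the trend, 9516 to 9551 without a library suffix and 9848 to 11295 without a sample number. Of the 8 genes, 6 to 7 were called without a suffix, 6 to 8 without a sample number and 7 with no filter, with no trend and with the replicate block, where Mus81 lost its call. Of the 13 other pathway genes, 11 to 12 were called without a suffix and 9 to 12 without a sample number. With the suffix as a replicate block 11774 genes were called, 12 of the 13 other pathway genes among them, and of the 8 genes and the 4 ratios Mus81 alone lost its call. Of the 12 libraries, 5 correlated best with a library of their own suffix. Rescaled to TPM, levels were 11.6 for Msh4, 26.5 for Msh5, 13.5 for Mlh3, 24.1 for Exo1, 28.2 for Mus81, 18.5 for Eme1, 26.6 for Blm and 43.9 for Top3a. Without a sample number they were 5.15 to 6.01 FPKM for Msh4, 10.9 to 14.3 for Msh5, 6.23 to 6.79 for Mlh3, 11.1 to 12.2 for Exo1, 13.1 to 13.9 for Mus81, 8.14 to 9.55 for Eme1, 11.9 to 13.2 for Blm and 20.2 to 21.8 for Top3a. Neighbours in the order of levels that held in every number were 3 to 4. Without a sample number or a suffix the range of the log2 ratio was 0.36 to 0.57 for Msh4 to Msh5, 0.15 to 0.28 for Mlh3 to Exo1, 0.56 to 0.87 for Eme1 to Mus81 and 0.12 to 0.23 for Blm to Top3a. The adjusted p stayed under the threshold in all of these fits for Eme1 to Mus81 and rose to 0.314, 0.238 and 0.0952 for Msh4 to Msh5, Mlh3 to Exo1 and Blm to Top3a. These highest values came without 1 suffix, where 105 arrangements allow no p under 0.00952.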
